A study of Mus musculus with 5 samples.

Results

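The 9 genes described here encode transcription factors that set and maintain the identity of microglia, the resident macrophages of the brain: Spi1, Sall1, Sall3, Maf, Mef2a, Mef2c, Runx1, Cebpa and Cebpb. They were chosen by gene symbol, and all 9 were found among the 41388 genes of the count table and were among the 12240 genes with enough reads to be tested. RNA was sequenced from eYFP-positive cells sorted from papain-digested brains of C57Bl/6 mice aged 4 weeks. The A20 deletion group (genotype label eYFP-A20Dmg, 3 libraries) is described as fully deficient for A20, the ubiquitin-editing inhibitor of NF-kB signalling encoded by Tnfaip3. The control group (eYFP-A20fl/wt Cx3cr1-CreERT2/+, 2 libraries) carried a floxed and a wild-type A20 allele with a tamoxifen-inducible Cre in the Cx3cr1 locus, and is described as partially deficient. Mice of both groups received 2 mg tamoxifen on postnatal days 14 and 16, so the controls are neither free of Cre nor untouched at the A20 locus. The labels do not say whether libraries of a group came from separate or pooled animals, and p-values measure only the spread between these libraries, which may be partly technical.

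PU.1, the product of Spi1, is an ETS-family factor that opens enhancers across the myeloid lineage, and RUNX1 and C/EBP factors act with it as macrophages form. SALL1 is a zinc-finger regulator that, among macrophages, is largely particular to microglia and keeps them in their homeostatic state, and SALL3 is its paralog. The MEF2 factors and c-MAF (Maf) bind microglial and macrophage enhancers alongside PU.1, whereas C/EBPbeta is best known as an inducible driver of inflammatory and acute-phase genes.

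Libraries held 9726334 to 12883827 counts in the A20 deletion group and 13946211 and 15275199 in the controls. The targeted gene did not separate the groups: Tnfaip3 stood at 295, 277 and 348 CPM (read counts scaled to library totals, with edgeR's TMM factors) in A20 deletion replicates 1 to 3, and at 454 and 94.7 CPM in control replicates 1 and 2. Counts over all exons do not check a deletion whose exons the labels do not name. A20 deletion replicates 2 and 3 differed in structure from the rest, with 4.63% and 3.56% of counts from mitochondrial genes, against 0.847% in A20 deletion replicate 1 and 1.19% and 0.852% in the controls. Genes with exons longer than the median of 4427 bases took 44.9%, 37.8% and 38.5% of the tested genes' counts in A20 deletion replicates 1 to 3, and 47.9% and 46.8% in the controls. Xist was counted 616 times in A20 deletion replicate 1 and 780 times in control replicate 1 and was at 0 in the other libraries. Y-linked genes held 7, 2257 and 1304 counts in A20 deletion replicates 1 to 3, against 14 and 2175 in control replicates 1 and 2. In both groups replicate 1 thus differed from the other libraries in sex-linked genes. The part of sex in the differences between libraries was not tested. Microglial identity was clear in all 5: the 10 microglial markers (P2ry12, Tmem119, Cx3cr1 and others) came to a sum of 42916 to 47906 CPM per A20 deletion library and of 59080 and 62511 CPM in the controls.

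No transcription factor of the 9 passed the threshold between the groups (edgeR quasi-likelihood test, adjusted p under 0.05 over all genes tested), where 2.59% of all genes tested did. Cebpb stood highest in the A20 deletion libraries relative to the controls. Sall1, Mef2a and Mef2c were lower in all A20 deletion libraries than in both controls without passing, and Spi1, Runx1 and Cebpa differed little. At an unadjusted p under 0.05 by edgeR the count was 4 of 9 (1 higher, Cebpb, and 3 lower, Sall1, Mef2a and Mef2c), against 21% of all genes tested (12.8% higher and 8.26% lower). DESeq2 called 3 of 9 (Cebpb higher, Sall1 and Mef2a lower), where it called 7.55% of genes (5.03% higher and 2.52% lower). The edgeR fit without a filter on low counts called 2 (Cebpb higher and Sall1 lower), where it called 8.22% of genes (5.06% higher and 3.15% lower). Limma-voom called 0, where it called 1.72% of genes. The groups did not overlap for 2 genes that were higher (Cebpb and Cebpa) and 3 that were lower, and over all genes tested 21.8% were higher and 18.5% lower without overlap.

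Promoters are shown for the 4 genes on which the comparison turns, the inducible Cebpb and the lower-standing trio of Sall1, Mef2a and Mef2c. Each runs from 250 bases before to 50 bases after the annotated start (RefSeq, GRCm38.p6), 5′ to 3′ on the gene's strand, and 6 of the 9 genes had an entry. The windows are chr2:167688665-167688964 (plus strand) for Cebpb, chr8:89044113-89044412 (minus strand) for Sall1, chr7:67372809-67373108 (minus strand) for Mef2a and chr13:83503784-83504083 (plus strand) for Mef2c. Capitals mark every match, on either strand, to motifs for PU.1 (GGAAGT), RUNX (TGTGGT), C/EBP (TTGCNNAA), MEF2 (CTANNNNTAG), interferon response elements (GAAANNGAAA), NF-kB (GGGANNNNCC) and the MAF half-site (TGCTGA).
Cebpb: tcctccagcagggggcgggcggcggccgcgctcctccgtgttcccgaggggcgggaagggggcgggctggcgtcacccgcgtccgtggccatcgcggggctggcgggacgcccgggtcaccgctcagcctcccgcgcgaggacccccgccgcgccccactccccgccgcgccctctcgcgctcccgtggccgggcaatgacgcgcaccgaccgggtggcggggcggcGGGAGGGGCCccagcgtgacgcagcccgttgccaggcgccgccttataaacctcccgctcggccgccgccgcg
Sall1: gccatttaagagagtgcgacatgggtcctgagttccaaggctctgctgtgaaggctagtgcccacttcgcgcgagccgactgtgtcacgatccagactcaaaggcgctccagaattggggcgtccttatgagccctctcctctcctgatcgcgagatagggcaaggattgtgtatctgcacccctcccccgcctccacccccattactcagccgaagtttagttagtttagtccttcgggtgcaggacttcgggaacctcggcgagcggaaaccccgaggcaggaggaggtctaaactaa
Mef2a: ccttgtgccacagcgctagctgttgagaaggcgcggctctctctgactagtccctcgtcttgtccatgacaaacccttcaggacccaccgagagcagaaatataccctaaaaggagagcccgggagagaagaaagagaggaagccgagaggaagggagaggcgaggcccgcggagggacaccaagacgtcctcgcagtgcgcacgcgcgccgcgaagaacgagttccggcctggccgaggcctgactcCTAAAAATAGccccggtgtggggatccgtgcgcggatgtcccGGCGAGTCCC
Mef2c: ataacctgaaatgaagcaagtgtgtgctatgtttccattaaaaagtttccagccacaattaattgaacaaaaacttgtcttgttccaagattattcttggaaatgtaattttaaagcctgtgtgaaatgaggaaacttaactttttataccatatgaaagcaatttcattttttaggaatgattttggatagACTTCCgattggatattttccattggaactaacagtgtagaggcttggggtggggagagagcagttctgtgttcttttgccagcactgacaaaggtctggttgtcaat
The Cebpb window held a match to the NF-kB pattern starting 23 bases before the start. The Mef2a window held a MEF2 match across its start and an NF-kB pattern match from transcribed base 41 to the window's end. The Mef2c window held a PU.1 match 58 bases before the start. None of the 7 patterns was in the Sall1 window. Of 32851 annotated promoter windows of 300 bases, 20.7% held the NF-kB pattern, 3.69% the MEF2 pattern and 23.8% the PU.1 pattern, and 16.8%, 10.8%, 3.44% and 19.5% held the RUNX, C/EBP, interferon and MAF patterns. No match in this list overlapped another. GC content was 80.7% in the Cebpb window, 57.3% in Sall1, 62.3% in Mef2a and 35.7% in Mef2c.

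**Figure D1:**
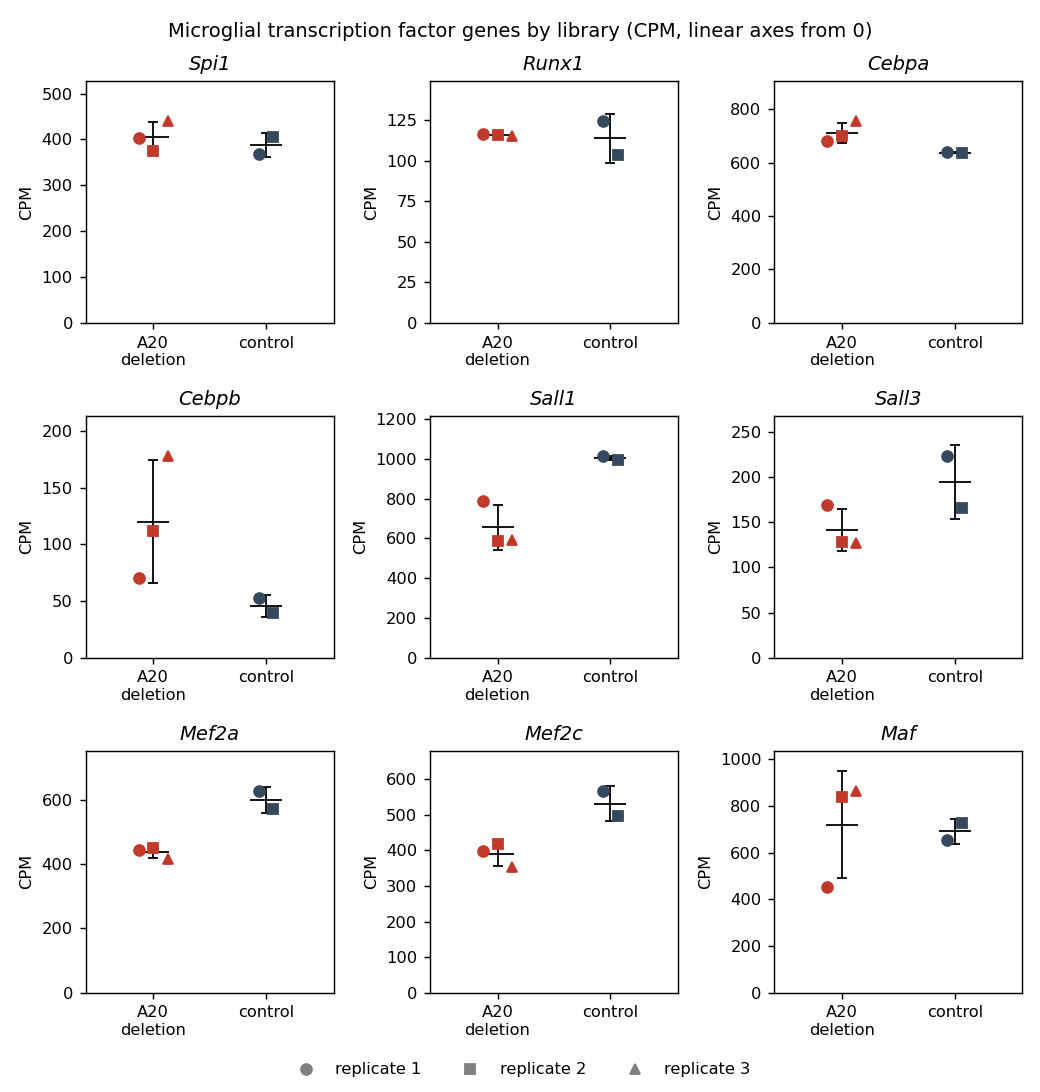
CPM of the 9 genes in each library, 3 A20 deletion libraries (red, left) and 2 control libraries (dark, right), with mean and SD as bars; symbols give the replicate number. Cebpb lies above both controls and Sall1, Mef2a and Mef2c below them in all 3 A20 deletion libraries, while Runx1 and Spi1 overlap.

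The core lineage factors Spi1 and Runx1 differed by less than the spread between libraries. Spi1 (ENSMUSG00000002111, GRCm38 chromosome 2, 91082390 to 91115756), which encodes PU.1, had 403, 375 and 439 CPM in A20 deletion replicates 1 to 3, against 369 and 406 CPM in control replicates 1 and 2. The groups overlapped, and the difference was 0.07 on the log2 scale (SE 0.15, edgeR adjusted p = 0.819). Runx1 (ENSMUSG00000022952, chromosome 16, 92601466 to 92826149), a Runt-domain factor needed for definitive blood formation, had 116, 116 and 115 CPM in A20 deletion replicates 1 to 3, against 124 and 103 CPM in the controls. The 3 A20 deletion values lay between the 2 controls, with a log2 fold change of 0.02 (SE 0.16, edgeR adjusted p = 0.94). The sign of both differences turned under some alternatives, so neither has a direction.

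The C/EBP pair differed in size of change. Cebpb (ENSMUSG00000056501, chromosome 2, 167688915 to 167690418) had 70, 112 and 178 CPM in A20 deletion replicates 1 to 3, against 52.8 and 39.1 CPM in control replicates 1 and 2. All 3 A20 deletion libraries lay above both controls, but they spanned 2.54-fold among themselves, and replicate 1 lay nearest to the controls. Group means were 120 ± 54.3 CPM (SD, n = 3) in A20 deletion and 46 ± 9.65 CPM (SD, n = 2) in control libraries, a 2.61-fold difference (log2 1.38, SE 0.39) with an edgeR adjusted p of 0.125. Without A20 deletion replicate 1 the log2 fold change was 1.63 and passed (adjusted p = 0.00269 by edgeR), in a fit that called 32.4% of all genes (15.7% higher and 16.7% lower). As the only library of its group, replicate 1 differed 1.53-fold from the controls (log2 0.62, adjusted p = 0.286 by edgeR), and with the mitochondrial share of counts as a covariate 1.76-fold (log2 0.81, adjusted p = 0.336). The exons of Cebpb share 312 of their 1504 bases with Tmem189 on the other strand. Tmem189 held 395, 591 and 434 counts in A20 deletion replicates 1 to 3 and 451 and 621 in the controls, while Cebpb held 808, 1423 and 1745 counts in A20 deletion replicates 1 to 3 and 742 and 610 in the controls. How strand was treated in the counting is not given, so reads from the shared bases cannot be told apart.

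Cebpa (ENSMUSG00000034957, chromosome 7, 35119293 to 35121928), which drives the commitment of myeloid progenitors, had 680, 700 and 755 CPM in A20 deletion replicates 1 to 3, against 639 and 637 CPM in the controls. Both groups were tight and did not overlap, yet the difference was 1.12-fold (log2 0.16, SE 0.14, edgeR adjusted p = 0.532). Set against Cebpa in the same library, where scaling plays no part, the log2 ratio of Cebpb to Cebpa counts was -3.28, -2.65 and -2.09 in A20 deletion replicates 1 to 3 and -3.60 and -4.02 in the controls. The means were -2.67 ± 0.60 (SD, n = 3) in A20 deletion and -3.81 ± 0.30 (SD, n = 2) in control libraries, a difference of 1.14 on the log2 scale. The groups did not overlap, and the exact two-sided permutation test gave p = 0.2, the smallest it can give with 3 against 2 libraries.

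Among the SALL factors, Sall1 was the lower-standing member with the smallest p. Sall1 (ENSMUSG00000031665, chromosome 8, 89027235 to 89044162) had 786, 586 and 593 CPM in A20 deletion replicates 1 to 3, against 1013 and 996 CPM in the controls. The controls agreed closely, all 3 A20 deletion libraries lay below them, and replicate 1 lay between the controls and replicates 2 and 3. The means were 655 ± 113 CPM (SD, n = 3) in A20 deletion and 1005 ± 11.9 CPM (SD, n = 2) in control libraries, with a log2 fold change of -0.62 (SE 0.18, edgeR adjusted p = 0.134). It was -0.35 with A20 deletion replicate 1 as the only deletion library (adjusted p = 0.492 by edgeR) and -0.80 without that library (adjusted p = 0.00275).

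Sall3 (ENSMUSG00000024565) had 169, 128 and 128 CPM in A20 deletion replicates 1 to 3, against 223 and 165 CPM in the controls. Here A20 deletion replicate 1 exceeded control replicate 2, so the groups overlapped, with a log2 fold change of -0.46 (SE 0.21, edgeR adjusted p = 0.261). The log2 ratio of Sall3 to Sall1 counts was -2.22, -2.20 and -2.22 in A20 deletion replicates 1 to 3 and -2.18 and -2.59 in the controls. The ratio in the 3 A20 deletion libraries was thus near that of control replicate 1, with control replicate 2 lower. The exact two-sided permutation test gave p = 0.8.

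Mef2a and Mef2c, MADS-box factors whose proteins bind the same AT-rich element as homo- or heterodimers, stood lower to a like extent. Mef2a (ENSMUSG00000030557, chromosome 7, 67231163 to 67372858) had 443, 449 and 417 CPM in A20 deletion replicates 1 to 3, against 627 and 572 CPM in the controls. The means were 436 ± 17.2 CPM (SD, n = 3) in A20 deletion and 600 ± 39.2 CPM (SD, n = 2) in control libraries, with a log2 fold change of -0.46 (SE 0.14, edgeR adjusted p = 0.156). Unlike Sall1, Mef2a was at one level in all 3 A20 deletion libraries. Mef2c (ENSMUSG00000005583, chromosome 13, 83504034 to 83667080) had 398, 417 and 353 CPM in A20 deletion replicates 1 to 3, against 567 and 497 CPM in the controls. All A20 deletion libraries lay below both controls, with a log2 fold change of -0.45 (SE 0.16, edgeR adjusted p = 0.184). The log2 ratio of Mef2a to Mef2c counts was 0.15, 0.11 and 0.24 in A20 deletion replicates 1 to 3 and 0.15 and 0.20 in the controls, and its group means differed by -0.01 (exact two-sided permutation p = 1).

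Both MEF2 genes are long, with 14681 bases of exon in Mef2a and 15715 in Mef2c, and long genes took a smaller share of counts in A20 deletion replicates 2 and 3. With an offset for each library's trend on exon length, the log2 fold changes were smaller in size, at -0.13 for Mef2a and -0.12 for Mef2c (adjusted p = 0.68 and 0.734 by edgeR), and the offset gave -0.53 for Sall1, with 5265 bases, against -0.62 without it, and 0.95 for Cebpb, with 1504 bases, against 1.38 without it. In A20 deletion replicate 1, where genes longer than the median took 44.9% of counts, against 47.9% and 46.8% in the controls, both MEF2 genes stood below both controls. With that library as the only one of its group the log2 fold changes were -0.43 and -0.41 (adjusted p = 0.405 and 0.452 by edgeR). For the other members the offset gave 0.33 for Runx1 (adjusted p = 0.311 by edgeR), against 0.02 without it, and 0.02 for Cebpa, against 0.16. It gave -0.25 for Sall3, against -0.46, 0.32 for Maf, against 0.06, and -0.06 for Spi1, against 0.07. The part of transcript length in these differences was not tested beyond the offset.

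Maf (ENSMUSG00000055435, chromosome 8, 115682942 to 115707794), which encodes c-MAF, a bZIP factor of mature tissue macrophages, varied more within the A20 deletion group than between the groups. It had 454, 838 and 863 CPM in A20 deletion replicates 1 to 3, against 653 and 728 CPM in the controls. Replicate 1 lay below both controls and replicates 2 and 3 above them, a 1.90-fold span. The log2 difference between the groups was 0.06 (SE 0.28, edgeR adjusted p = 0.918), and its sign turned with the libraries kept: -0.59 with A20 deletion replicate 1 alone (adjusted p = 0.199 by edgeR) and 0.27 without it (adjusted p = 0.121).

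**Figure D2:**
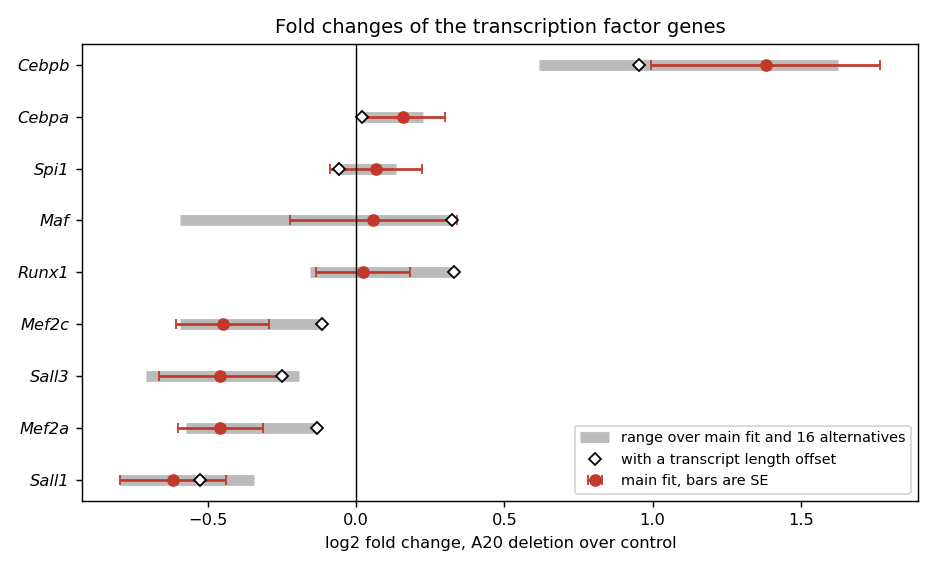
Log2 fold change of each gene, A20 deletion over control, in the main edgeR fit (red points, bars are SE), with an offset for exon length (open diamonds) and the range over the main fit and all 16 alternatives (grey). Cebpb stays above 0 and Sall1, Sall3, Mef2a and Mef2c stay below 0 throughout, whereas the ranges of Spi1, Maf and Runx1 cross 0.

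**Figure D3:**
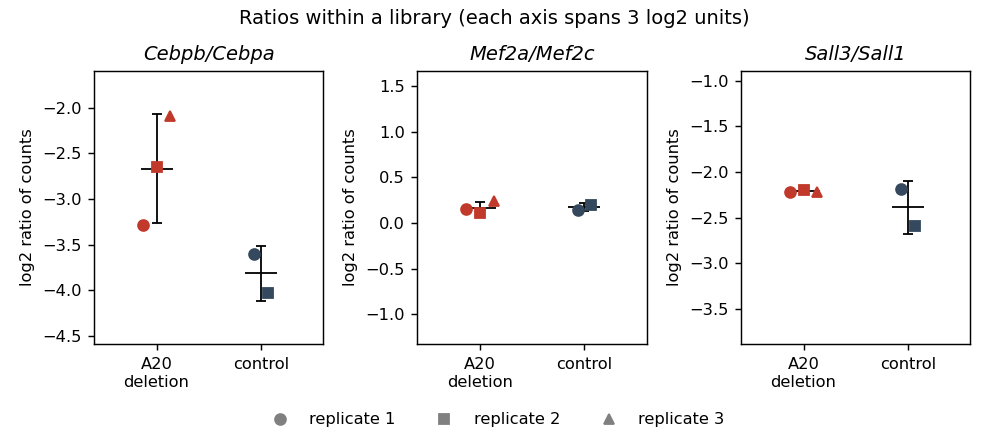
Log2 ratio of the counts of paired genes within each library, with mean and SD, 3 A20 deletion libraries (red, left) and 2 control libraries (dark, right). Only the ratio of Cebpb to Cebpa separates the groups, and the ratio of Mef2a to Mef2c lies between 0.11 and 0.24 in all 5 libraries.

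Per length, the order of the factors was led by Cebpa in both groups, and Cebpb changed place. In the A20 deletion libraries Cebpa had 270 ± 14.7 CPM per kb of exon (SD, n = 3), followed by Spi1 with 150 ± 12, Sall1 with 124 ± 21.5, Maf with 87.2 ± 27.8 and Cebpb with 79.7 ± 36.1. In the controls Cebpa had 242 ± 0.699 CPM per kb (SD, n = 2), followed by Sall1 with 191 ± 2.25, Spi1 with 144 ± 9.73 and Maf with 83.8 ± 6.47, and Cebpb was the seventh with 30.6 ± 6.42. The ranges of Spi1 and Sall1, of Sall1 and Cebpb, of Maf and Cebpb, and of Mef2c and Sall3 overlapped in the A20 deletion libraries. In the controls those of Mef2c and Cebpb and of Cebpb and Sall3 overlapped. Runx1 was lowest in both, at 9.62 ± 0.0485 CPM per kb in A20 deletion and 9.46 ± 1.24 in control libraries. Exon length is the union over annotated isoforms, which understates genes that use a short form.

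**Figure D4:**
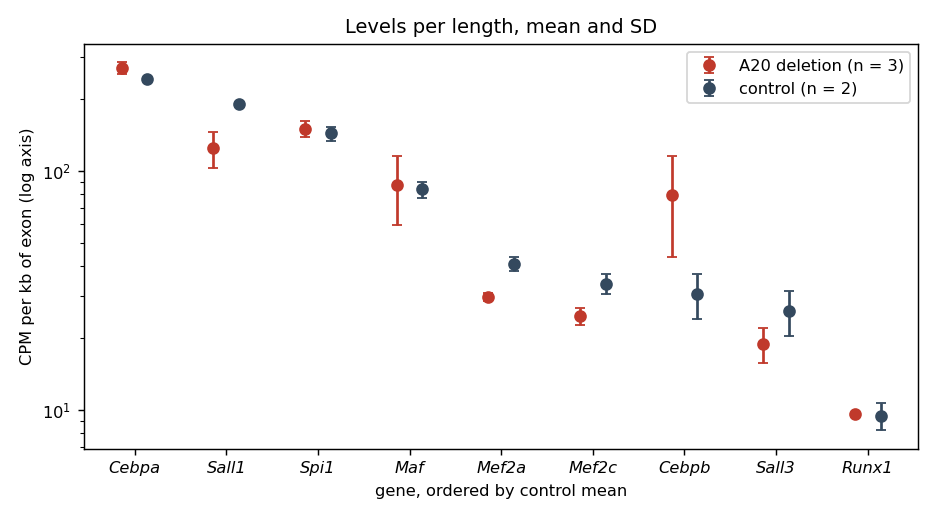
CPM per kb of exon on a log axis, mean and SD, for A20 deletion (red, n = 3) and control (dark, n = 2) libraries, ordered by the control mean. Cebpa leads at 270 CPM per kb in A20 deletion and 242 CPM per kb in control libraries, and Cebpb is the fifth in the A20 deletion libraries and the seventh in the controls.

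Of 18 paralogs of the 9 factors 10 had enough reads to be tested, 0 rose and 1 fell, with a median log2 fold change of 0.01, against 0.05 over all genes tested (2.08% of all genes rose and 0.507% fell). The member that fell was Sall2, a further SALL zinc-finger gene, with 35, 28.5 and 33.4 CPM in A20 deletion replicates 1 to 3, against 59.3 and 59.1 CPM in the controls. On the log2 scale it differed by -0.87 (SE 0.17, edgeR adjusted p = 0.0458). The call was lost when any single library but A20 deletion replicate 1 was left out (adjusted p up to 0.344 by edgeR), with A20 deletion replicates 2 and 3 both omitted, with a mitochondrial covariate, with limma-voom and with the replicate number as a block. Mef2d had 165, 86.2 and 97.3 CPM in A20 deletion replicates 1 to 3, against 202 and 148 CPM in the controls, and overlapped (log2 -0.59, SE 0.30, edgeR adjusted p = 0.298).

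Of 20 partners and regulators of these factors 18 were tested, and 0 passed by edgeR, with a median log2 fold change of -0.09. At an unadjusted p under 0.05, 2 were higher and 3 lower. The smallest p belonged to Smad3, the TGF-beta signal transducer that cooperates with PU.1. It had 152, 113 and 101 CPM in A20 deletion replicates 1 to 3, against 230 and 232 CPM in the controls (log2 -0.92, SE 0.20, edgeR adjusted p = 0.071). Hdac9, a class IIa histone deacetylase that binds MEF2 proteins, had 9.69 ± 1.43 CPM (SD, n = 3) in A20 deletion and 16.8 ± 2.28 CPM (SD, n = 2) in control libraries (log2 -0.79, SE 0.22, edgeR adjusted p = 0.125). Irf8, the partner of PU.1 in microglia, was chosen after its values were seen: it had 968, 817 and 821 CPM in A20 deletion replicates 1 to 3 and 929 and 814 CPM in the controls, with an edgeR adjusted p of 0.988.

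Of 37 other macrophage transcription factors 34 were tested, 0 rose and 1 fell (median log2 fold change 0.10). Tal1, a basic helix-loop-helix factor of blood development, had 37.6, 32 and 29.2 CPM in A20 deletion replicates 1 to 3, against 57.4 and 69.9 CPM in the controls (log2 -0.95, SE 0.19, edgeR adjusted p = 0.0496). The groups did not overlap, and the value lay just under the threshold. It was lost under the same alternatives as Sall2 (adjusted p up to 0.384 by edgeR).

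Genes that depend on these factors were read from lists that partly share members. Of 28 myeloid genes known to depend on PU.1, all tested, 3 rose and 0 fell (median log2 fold change 0.18). Lyz2, the macrophage lysozyme, had 289, 189 and 204 CPM in A20 deletion replicates 1 to 3, against 76.7 and 86 CPM in the controls (log2 1.48, SE 0.23, edgeR adjusted p = 0.0255). Aif1, the actin-bundling protein IBA1, rose 2.20-fold, and Cybb, the catalytic subunit of the phagocyte NADPH oxidase, 8.91-fold, with 390, 111 and 139 CPM of Cybb in A20 deletion replicates 1 to 3, against 20.2 and 27.6 CPM in the controls. Spi1 itself differed between the groups by 0.07 on the log2 scale.

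Of 20 genes tied to C/EBP factors 17 were tested, 5 rose and 0 fell, with a median log2 fold change of 1.48. Ccl2, a chemokine for monocytes, had 81.2, 84.5 and 62.3 CPM in A20 deletion replicates 1 to 3, against 22.8 and 15.3 CPM in the controls (log2 2.00, SE 0.25, edgeR adjusted p = 0.0134). Il12b, the shared p40 chain of interleukins, had 19.6, 5.42 and 10.8 CPM in A20 deletion replicates 1 to 3, against 0.213 and 0.0641 CPM in the controls, which rest on 3 counts and 1 count (adjusted p = 0.0148 by edgeR). The complement component C3 rose 16.6-fold, Il1b 7.98-fold and Lyz2 as above. Cebpb was not highest where C3 and Il12b were: C3 had 319 CPM in A20 deletion replicate 1 and 79.4 and 199 CPM in replicates 2 and 3, and Cebpb was lowest in replicate 1. Il1b followed the order of Cebpb, with 81, 114 and 160 CPM. With 3 libraries such orders are a description only, and the part of Cebpb in these genes was not tested.

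Of 20 microglial identity genes, several of which need SALL1, 1 rose and 2 fell (median log2 fold change -0.37). Over all genes tested 2.08% rose and 0.507% fell. By sign 15 of the 20 were lower and 5 higher. Without overlap 15 were lower and 4 higher, against 18.5% and 21.8% of all genes tested. At an unadjusted p under 0.05 by edgeR 11 were lower and 4 higher, against 8.26% and 12.8% of all genes tested. The gene Fcrls, an Fc receptor-like gene of microglia, had 1497, 2006 and 1398 CPM in A20 deletion replicates 1 to 3, against 4092 and 3684 CPM in the controls (log2 -1.25, SE 0.19, edgeR adjusted p = 0.0217). The fructose transporter Slc2a5 was 2.23-fold lower. Lag3, an inhibitory receptor also used by T cells, rose 1.97-fold, with 1383, 1131 and 1260 CPM in A20 deletion replicates 1 to 3, against 656 and 618 CPM in the controls (edgeR adjusted p = 0.0277). Of the 12 genes named here as called in the lists, 0 passed without control replicate 1 and 0 without control replicate 2. Without A20 deletion replicate 3, 2 passed (Ccl2 and Il12b), and without A20 deletion replicate 2, 7 passed (not Sall2, Tal1, Aif1, Lag3 and Il1b). With the length offset Lyz2, Lag3 and Ccl2 did not pass, with limma-voom Cybb and Il12b did not, with upper-quartile scaling Slc2a5 did not, and with A20 deletion replicates 2 and 3 omitted Aif1 did not. With the replicate number as a block Aif1, Lag3 and Slc2a5 did not pass.

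Genes whose centred log2 CPM over the 5 libraries lay closest to a factor were sought among 8299 protein-coding genes. Closest to Sall1 were Il17ra, Tent4b and Clec16a, with root-mean-square differences of 0.0177, 0.0184 and 0.0247 on the log2 scale. Il17ra, an interleukin 17 receptor chain, had 177, 133 and 132 CPM in A20 deletion replicates 1 to 3, against 234 and 227 CPM in the controls. Closest to Cebpb were Baiap2, Hscb and Rbm3, at 0.0647, 0.184 and 0.19. With 5 libraries such likeness is a description only.

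Several of these factors are also used by other cells that a sort could hold. The 10 monocyte markers summed to 75.6, 49.8 and 43.5 CPM in A20 deletion replicates 1 to 3, against 21.5 and 19.2 CPM in controls. Of 7 tested, 1 was called higher (Plac8), and no marker was at 0 in all libraries. By sign 6 were higher and 1, Ccr2, lower, with a median log2 fold change of 2.13. At an unadjusted p under 0.05 by edgeR 4 were higher and 0 lower, against 12.8% and 8.26% of all genes tested. Without Plac8, left out after its values were seen, the sums were 45, 33.1 and 16.4 CPM in A20 deletion replicates 1 to 3, against 18.5 and 16.6 CPM in the controls, so the groups overlapped. Ccr2, the chemokine receptor that marks inflammatory monocytes and was also chosen after its values were seen, had 8.14, 5.19 and 5.50 CPM in A20 deletion replicates 1 to 3, against 11.5 and 8.21 CPM in the controls (log2 -0.65, SE 0.31, edgeR adjusted p = 0.271). The 10 neutrophil markers summed to 11.7, 1.49 and 3.67 CPM in A20 deletion replicates 1 to 3, against 23 and 0.385 CPM in the controls. The 10 border macrophage markers summed to 252, 136 and 179 CPM in A20 deletion replicates 1 to 3, against 83.8 and 170 CPM in the controls. The 10 neuron markers summed to 7.62, 14.1 and 10.8 CPM in A20 deletion replicates 1 to 3, against 6.26 and 3.08 CPM in the controls. Neuron sums were thus higher in all A20 deletion libraries, as were monocyte sums with Plac8 counted, while neutrophil and border macrophage sums overlapped. Cebpb, like the monocyte sum with Plac8 counted, was higher in all A20 deletion libraries than in both controls. Within the A20 deletion group Cebpb was lowest in the library with the highest monocyte sum. The part of other cells in the results was not tested. T and NK markers summed to between 4.07 and 8.32 CPM in A20 deletion libraries and to 0.925 and 1.41 CPM in the controls, and B cell markers to between 443 and 461 CPM in A20 deletion libraries and to 350 and 283 CPM in the controls, with 1 of 3 tested members called higher (Cd22). Astrocyte markers summed to 227, 592 and 651 CPM in A20 deletion replicates 1 to 3 and to 214 and 349 CPM in the controls. All 10 were tested and were higher by sign, with a median log2 fold change of 1.07 and 1 called (Aldh1l1). At an unadjusted p under 0.05 by edgeR 2 astrocyte markers were higher and 0 lower. Oligodendrocyte markers summed to 263, 377 and 372 CPM in A20 deletion replicates 1 to 3 and to 196 and 225 CPM in the controls. All 8 tested were higher by sign, with a median log2 fold change of 0.91 and 0 called. At an unadjusted p under 0.05 by edgeR 5 oligodendrocyte markers were higher and 0 lower. Endothelial markers summed to between 71.1 and 134 CPM in A20 deletion libraries and to 67.6 and 74.6 CPM in the controls. Of 10 endothelial markers, all tested, 9 were higher and 1 lower, with a median log2 fold change of 1.92 and 0 called. At an unadjusted p under 0.05 by edgeR 7 were higher and 1 lower. The lower one was Pecam1, which had the highest CPM of the list. It held 303, 448 and 275 counts in A20 deletion replicates 1 to 3, against 711 and 828 in the controls. T and NK, B cell and oligodendrocyte sums were thus also higher in all A20 deletion libraries, while astrocyte and endothelial sums overlapped. In bulk RNA a change in the share of cells and a change in RNA per cell cannot be told apart.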

How the data were processed

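The deposited table holds raw read counts by Ensembl gene identifier, without normalization. Per the submitters' processing notes, the authors used STAR 2.4.0j, featureCounts and DESeq2 1.22.1 on GRCm38. The sources used here give neither annotation release nor strand setting. Symbols, positions and exon lengths came from GENCODE M21 (GRCm38), which matched 40340 of 41388 identifiers.

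In R 4.3.3, edgeR 4.0.16 kept genes by filterByExpr (minimum count 10, minimum total 15) and scaled libraries with TMM factors. The groups were compared over the whole table by the quasi-likelihood test with no covariate and Benjamini-Hochberg adjustment (threshold 0.05). The SE is the size of the log2 fold change divided by the square root of F and is approximate. Ratios were tested by the exact permutation test in SciPy 1.17.1. The procedure was tested on simulated data. Alternatives were other scalings, filters, DESeq2 1.42.0, limma-voom (limma 3.58.1), a replicate block, a length offset, a mitochondrial covariate and leaving out libraries. Counts of every pair of libraries differed beyond sampling noise (chi-square per degree of freedom 14.4 to 131).

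Genes named beyond the 9 members are, per list, up to 6 members past the threshold or the 2 with the smallest p, plus Mef2d, apart from called markers and genes said to be chosen after their values were seen. A few of these genes are left out of the text. The nearest profiles were sought for Sall1 and for the member with the smallest p. The members and lists were chosen with earlier results of these data known, so they give no independent support.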

Additional observations from a re-analysis of the deposited data

How the results depend on the processing

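Direction held under all 16 alternatives for Cebpb, Cebpa, Sall1, Sall3, Mef2a and Mef2c. DESeq2 called Cebpb (log2 1.33), Sall1 (-0.66) and Mef2a (-0.50), thus 1 member higher and 2 lower, and the fit without a filter called Cebpb (1.34) and Sall1 (-0.65), 1 higher and 1 lower. Without A20 deletion replicate 1 Cebpb and 4 lower members passed in a fit that called 32.4% of all genes, and no other alternative called a member. Over the fits that leave out 1 library, log2 fold changes ran from 0.996 to 1.63 for Cebpb, -0.80 to -0.53 for Sall1, -0.71 to -0.27 for Sall3, -0.58 to -0.42 for Mef2a and -0.59 to -0.37 for Mef2c, and members called numbered 0 to 1 higher and 0 to 4 lower.

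The sign turned for Spi1 with the length offset (-0.059; -0.046 to 0.13 leaving out 1 library), for Runx1 with DESeq2 (-0.023), its size factors (-0.0064), library size alone (-0.011) and no filter (-0.014; -0.16 to 0.12 leaving out 1 library), and for Maf with limma-voom (-0.0011), the mitochondrial covariate (-0.50), A20 deletion replicates 2 and 3 omitted (-0.59) and the replicate block (-0.16; -0.084 to 0.27 leaving out 1 library). The cause was not tested. Genes called numbered 317, but 989 with DESeq2, 211 with limma-voom, 1701 without a filter and 0 to 3923 leaving out 1 library (0 without control replicate 2, 3923 without A20 deletion replicate 1).

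Of 62 tested paralogs, partners and other factors, 0 rose and 2 fell; called higher were 3 with DESeq2, 6 without a filter and 0 to 10 leaving out 1 library. Called lower were 5 with DESeq2, 7 without a filter, 4 with the upper quartile, 0 to 16 leaving out 1 library and 0 with limma-voom, the mitochondrial covariate, the replicate block or A20 deletion replicates 2 and 3 omitted. Of 60 tested target and identity genes, 8 rose and 2 fell; higher were 15 with DESeq2, 17 without a filter, 5 with the length offset and 0 to 22 leaving out 1 library. Lower were 8 with DESeq2, 7 without a filter, 4 with the mitochondrial covariate or with A20 deletion replicates 2 and 3 omitted, 1 with the replicate block and 0 to 15 leaving out 1 library. Over all genes, the main fit called 2.08% higher and 0.507% lower. DESeq2 called 5.03% higher and 2.52% lower, and the fit without a filter 5.06% and 3.15%. The largest counts leaving out 1 library came without A20 deletion replicate 1, where 15.7% of all genes were called higher and 16.7% lower.

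The replicate numbers are not stated to pair samples, and A20 deletion replicate 3 has no partner. The deviations of same-numbered libraries from their group means correlated with r = 0.26 and 0.167 across genes. With 2 controls the control deviations mirror each other, so these values are not independent and cannot show pairing. The replicate block called 260 genes, 0 members and 7 of the 12 list genes named as called. Fits with 1 control assume that it varies like the other group. With 3 against 2 libraries the exact test cannot pass 0.05.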

Other observations

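The 2 control libraries held the lineage factors at near levels but not some inducible genes beside them, which were chosen after their values were seen. The higher control exceeded the lower by 1.004-fold for Cebpa, 1.02-fold for Sall1, 1.10-fold for Spi1 and Mef2a, and at most 1.35-fold, for Sall3 and Cebpb. In the same 2 libraries the immediate-early receptor Nr4a1 differed 9.44-fold (293 and 31 CPM), Tnf 7.88-fold (149 and 18.9 CPM), Tnfaip3 4.79-fold and the Krueppel-like factors Klf2 and Klf6 3.16-fold and 2.50-fold. In each of these control replicate 1 was the higher. Not all inducible genes were apart: C3 differed 1.05-fold and Ccl2 1.49-fold between the controls, while Il1b differed 2.57-fold. Among the A20 deletion libraries Nr4a1 ran only from 342 to 382 CPM.

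Within the A20 deletion group, Maf shared its split between replicate 1 and replicates 2 and 3 with Klf4 and Zfhx3, also chosen after their values were seen. Klf4 had 29.8, 103 and 92.5 CPM in A20 deletion replicates 1 to 3, against 27.1 and 15 CPM in the controls, and Zfhx3 had 187, 546 and 429 CPM in A20 deletion replicates 1 to 3, against 265 and 188 CPM in the controls. Neither passed (edgeR adjusted p = 0.141 and 0.325).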
